A study of Mus musculus with 8 samples.

Results

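The 9 genes described here encode homeodomain cofactors of the TALE class, named for an extended loop in the homeodomain: Meis1, Meis2 and Meis3, Pbx2 and Pbx3, Pknox1 and Pknox2, and Tgif1 and Tgif2. They were taken by symbol, all 9 were found, and the tables held 24306 usable symbols in all. Poly(A) RNA was sequenced in 8 libraries of mouse E14 cells, a line of embryonic stem cells (ESC), in 4 groups of 2 libraries. The groups were Wdr68 KO-NPC (Wdr68 knockout cells differentiated into cells labelled neural progenitor cells, NPC), E14-NPC (wild-type E14 cells differentiated in the same way), Wdr68 KO-ESC (undifferentiated knockout cells) and E14-ESC (undifferentiated wild-type cells). For every NPC library, embryoid bodies were grown for 2 days in hanging drops without LIF or kinase inhibitors, and for 2 days in suspension. They then received retinoic acid for 4 days, so both genotypes had the same treatment. ESC were kept with LIF and inhibitors of Mek and GSK3. How Wdr68 was disrupted and how many knockout clones were used are not given in the sources used here. Nothing states that the 2 libraries of a group came from separate cultures, so a p-value here reflects library-to-library variation that could be technical alone.

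TALE homeodomain proteins act mostly as DNA-binding partners rather than alone. PBX proteins bind DNA with HOX proteins, and MEIS and PKNOX proteins bind PBX through a shared N-terminal region and favour its entry into the nucleus. TGIF proteins recognise a core related to that of MEIS, recruit corepressors and histone deacetylases, and dampen TGF-beta and retinoid signalling. Transcripts of Meis and Pbx genes are known to rise with retinoic acid in mouse embryonal carcinoma cells. WDR68, encoded by the gene listed as Dcaf7, is a WD40-repeat scaffold that binds DYRK1 kinases and, as the title of the series states, belongs to the PRC1-AUTS2 complex.

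The start-site regions of 6 of the 9 genes were in the RefSeq table of promoters (build GRCm38.p6, 250 bases before to 50 after each start), as 10 windows, since Tgif1 has 5. The windows of the 2 genes whose transcripts changed most between ESC and NPC among these 6, Meis1 and Meis2, are shown beside 2 windows of Tgif1, the member whose transcript changed in the opposite direction. Each is 5′ to 3′ on the gene's strand, and capitals mark matches, on either strand, to TGACAG (the core bound by MEIS and PKNOX), TGATNGAC (PBX with MEIS) or TGATNNAT (PBX with HOX).
Meis1, chr11:19018920-19019219, minus strand: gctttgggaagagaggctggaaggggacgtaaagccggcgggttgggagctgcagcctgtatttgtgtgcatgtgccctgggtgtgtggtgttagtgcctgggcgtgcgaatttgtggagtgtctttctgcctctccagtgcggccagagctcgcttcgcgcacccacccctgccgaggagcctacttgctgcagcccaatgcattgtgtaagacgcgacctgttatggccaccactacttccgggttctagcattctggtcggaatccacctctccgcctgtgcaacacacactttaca
Meis2, chr2:116064570-116064869, minus strand: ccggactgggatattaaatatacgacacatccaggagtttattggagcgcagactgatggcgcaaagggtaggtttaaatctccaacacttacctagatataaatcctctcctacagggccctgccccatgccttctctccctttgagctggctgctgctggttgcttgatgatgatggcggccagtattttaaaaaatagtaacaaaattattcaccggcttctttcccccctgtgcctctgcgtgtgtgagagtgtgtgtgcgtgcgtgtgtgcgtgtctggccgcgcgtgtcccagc
Tgif1, chr17:70846728-70847027, minus strand: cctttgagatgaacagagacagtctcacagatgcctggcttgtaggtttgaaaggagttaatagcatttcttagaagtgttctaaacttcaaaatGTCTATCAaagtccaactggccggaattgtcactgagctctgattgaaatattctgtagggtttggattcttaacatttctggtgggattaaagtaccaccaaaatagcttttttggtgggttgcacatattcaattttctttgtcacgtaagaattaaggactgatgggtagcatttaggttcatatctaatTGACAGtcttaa
Tgif1, chr17:70849741-70850040, minus strand: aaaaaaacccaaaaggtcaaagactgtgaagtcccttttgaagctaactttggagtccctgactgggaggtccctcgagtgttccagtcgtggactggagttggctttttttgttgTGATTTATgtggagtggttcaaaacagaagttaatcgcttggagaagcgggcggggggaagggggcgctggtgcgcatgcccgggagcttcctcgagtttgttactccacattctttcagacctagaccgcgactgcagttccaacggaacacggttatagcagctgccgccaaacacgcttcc

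Among the members, matches to these 3 motifs were found in Tgif1 windows alone, and Tgif1 supplied 5 of the 10 windows. Both printed Tgif1 windows hold matches, while those at chr17:70851685-70851984 and chr17:70853483-70853782 hold none of the 3. The 2 printed windows therefore do not stand for all 5 of Tgif1. TGACAG was in 2 of the 10 member windows, the first Tgif1 one printed and the one at chr17:70851161-70851460. That share is close to the 19.2% of all 32851 windows of the table. TGATNGAC was in 1 of the 10, the first printed Tgif1 window, against 1.96% of all windows. TGATNNAT was in 1 of the 10, the other printed Tgif1 window, against 8.85%. The TGIF core TGTCA, whose reverse complement lies inside TGACAG, was in 5 of the 10 member windows (of Meis3 and Tgif1), against 45.4% of all windows. Direct repeats of AGGTCA separated by 2 or by 5 bases, the form bound by retinoic acid receptors, were in 0 of the 10, against 0.00913% of all windows for each spacing. The windows also differed in composition: the first printed Tgif1 window had 37.3% G and C and 2 CpG, while the Meis1 window had 58.3% and 15, the Meis2 window 51% and 13, and the median over all windows was 52.7% and 7. A match is a description of letters in a short window, and an absent match says only that the letters are not there. The start-site windows of Pbx3, Pknox1 and Pknox2 were not used here.

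The tables give FPKM (fragments scaled to transcript length and to the mapped fragments of the library). The confidence bounds in the tables imply 5996686 to 7942662 fragments per library, and a gene at 1 FPKM had a median of 19.0 to 28.3 implied fragments. Dcaf7 checked the genotype labels: it had 8.36 and 8.99 FPKM in KO-NPC, against 27.2 and 29.6 FPKM in E14-NPC, and 2.80 and 2.26 FPKM in KO-ESC, against 12.4 and 14.2 FPKM in E14-ESC. On the log2(FPKM + 1) scale used for every test, Dcaf7 was lower by -1.60 (SE 0.12) in KO-NPC and by -2.02 (SE 0.12) in KO-ESC (limma, adjusted p = 1.26e-04 and 0.00109). Markers of pluripotent cells summed to 11.1 to 11.8 FPKM in KO-NPC, 36.6 to 40.9 FPKM in E14-NPC, and 2479 to 2548 FPKM in the ESC libraries of both genotypes. Of these sums, Sox2 alone had 1.15 and 2.47 FPKM in KO-NPC and 30.4 and 29.9 FPKM in E14-NPC. The 10 neural progenitor markers summed to 47.5 to 50.5 FPKM in KO-NPC, against 296 to 301 FPKM in E14-NPC and 87.8 to 107 FPKM in ESC, where Sox2 alone had 77.5 to 92.9 FPKM. Without Sox2, which also marks pluripotent cells, the other 9 summed to 46.4 to 48.0 FPKM in KO-NPC, 266 to 270 FPKM in E14-NPC, 10.3 to 10.8 FPKM in KO-ESC and 11.3 to 13.9 FPKM in E14-ESC. Of the 10, 6 were higher and 2 lower in KO-NPC than in KO-ESC, where 41.6% of all genes were higher and 28.8% lower. The KO-NPC sum of the 9 without Sox2 lay between the ESC and E14-NPC sums. Most of that KO-NPC sum came from Nes (25.4 and 22.4 FPKM) and Msi1 (13.1 and 16.7 FPKM), while Sox1, Hes5 and Dll1 were each under 1 FPKM. The group names below are the labels. Markers of feeder fibroblasts, on which ESC could have been grown, summed to 1.02 to 1.59 FPKM in ESC libraries. In bulk RNA, fewer cells of a type and less RNA per cell cannot be told apart.

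Most of the 9 genes were at far higher levels in NPC than in ESC in both genotypes, and Tgif1 was lower. In E14-NPC against E14-ESC, 7 of 9 members were higher and 1 was lower at an adjusted p under 0.05 (limma across all 13318 genes tested, Benjamini-Hochberg), where 41.6% of all genes were higher and 31.1% lower. In KO-NPC against KO-ESC, 8 of 9 were higher and 1 was lower, where 41.6% of all genes were higher and 28.8% lower. The median change over the 9 genes was 1.89 in wild type and 1.91 in knockout on the log2(FPKM + 1) scale, while the median over all genes tested was 0.15 in wild type and 0.17 in knockout. All 9 genes passed the filter of 1 FPKM in at least 2 libraries, but 3 of them would not have passed without NPC libraries. In ESC, 0 libraries reached 1 FPKM for Meis1, and 1 library did so for each of Meis3 and Pknox2. The filter thus bound Meis1 to be higher in NPC and favoured the same for Meis3 and Pknox2. The counts and medians therefore describe the genes and support nothing further, and no p-value is given for the stage difference of these 3. The ranges of the 2 libraries did not overlap between NPC and ESC for any of the 9 genes in either genotype, as for 85.6% of all genes tested in knockout and 86.2% in wild type.

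**Figure D1:**
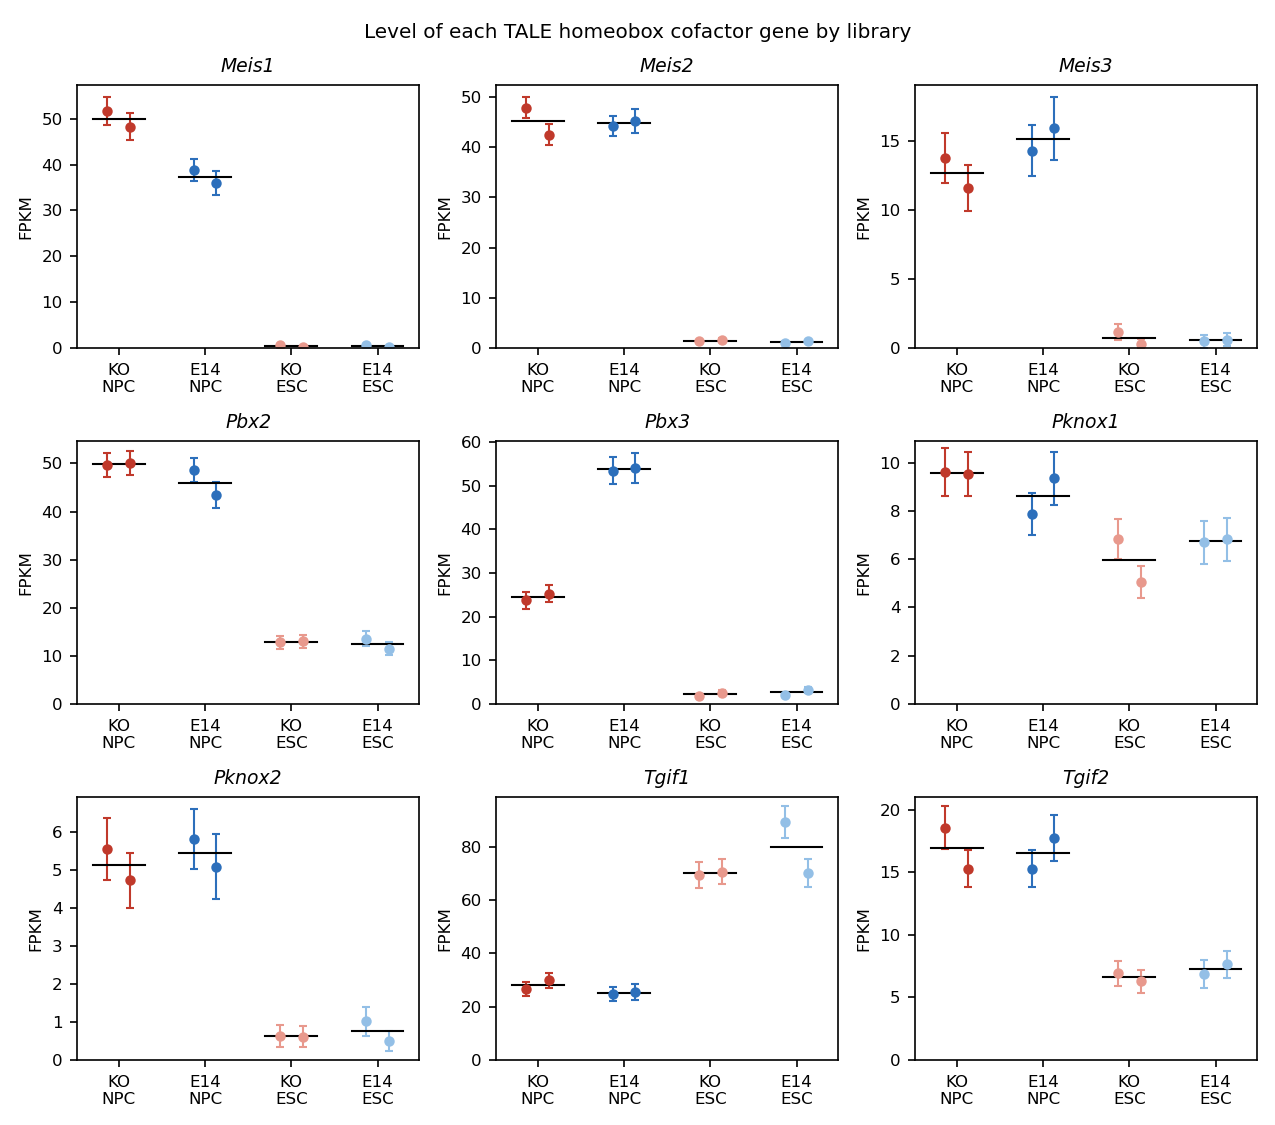
Level of each of the 9 genes in FPKM (linear axes from 0, with a scale of their own in each panel) in the 2 libraries of KO-NPC, E14-NPC, KO-ESC and E14-ESC, with the confidence bounds of the deposited tables as bars and the group mean as a black line. Pbx3 stands at 23.7 and 25.3 FPKM in KO-NPC and at 53.4 and 54.0 FPKM in E14-NPC, and Tgif1 alone is higher in ESC.

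The MEIS genes, whose products bind PBX and HOX partners, were all low in ESC, at 1.66 FPKM or less in every library, and far higher in NPC. Meis1 (chr11:18780430-18918972, mm9) had 51.7 and 48.2 FPKM in KO-NPC, 38.7 and 36.0 in E14-NPC, 0.636 and 0.194 in KO-ESC, and 0.637 and 0.298 in E14-ESC. Both NPC groups lay far above both ESC groups, where as few as 5.4 fragments stood behind a library's value. Its change was 5.19 ± 0.18 in KO-NPC over KO-ESC and 4.72 ± 0.18 in E14-NPC over E14-ESC (log2(FPKM + 1), SE, n = 2 libraries each), given as a description, since Meis1 passed the filter through NPC libraries alone. Meis2 (chr2:115686999-115890794, mm9) had 47.9 and 42.5 FPKM in KO-NPC, 44.2 and 45.3 in E14-NPC, 1.32 and 1.66 in KO-ESC, and 1.07 and 1.32 in E14-ESC. The NPC groups were at one level and the ESC groups at another, and Meis2 rose by 4.22 ± 0.12 in knockout cells and by 4.39 ± 0.12 in wild-type cells (limma adjusted p = 3.15e-07 and 2.50e-07). Meis3 (chr7:16760743-16771857, mm9) had 13.7 and 11.6 FPKM in KO-NPC, 14.3 and 15.9 in E14-NPC, 1.17 and 0.287 in KO-ESC, and 0.493 and 0.597 in E14-ESC. Meis3 was the lowest of the 3 MEIS genes in both NPC groups, and its NPC level was above that of ESC by 3.03 ± 0.24 in knockout and 3.38 ± 0.24 in wild-type cells (log2(FPKM + 1), SE), again as a description because of the filter.

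Both PBX members rose as well, and their ESC levels were unlike. Pbx2 (chr17:34729415-34734286, mm9) had 49.7 and 50.1 FPKM in KO-NPC, 48.6 and 43.4 in E14-NPC, 12.9 and 13.1 in KO-ESC, and 13.6 and 11.5 in E14-ESC. It was already well expressed in ESC, with no fewer than 290.5 implied fragments in any library, and its NPC level was 3.85-fold that of ESC in knockout and 3.68-fold in wild type (ratios of mean FPKM). Pbx3 (chr2:34026976-34227565, mm9) had 23.7 and 25.3 FPKM in KO-NPC, 53.4 and 54.0 in E14-NPC, 1.80 and 2.57 in KO-ESC, and 2.15 and 3.17 in E14-ESC. The ESC libraries of both genotypes shared one low range, and the NPC groups differed by genotype. Pbx3 was 11.2-fold higher in KO-NPC than in KO-ESC and 20.2-fold higher in E14-NPC than in E14-ESC, or 3.01 ± 0.17 and 3.92 ± 0.17 on the log2(FPKM + 1) scale (limma adjusted p = 4.76e-06 and 1.44e-06).

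The PKNOX genes, which encode PBX partners related to MEIS, were the least abundant members in NPC. Pknox1 (chr17:31701717-31744638, mm9) had 9.61 and 9.52 FPKM in KO-NPC, 7.86 and 9.35 in E14-NPC, 6.84 and 5.05 in KO-ESC, and 6.71 and 6.82 in E14-ESC. It had the narrowest range of the 9 genes, 0.62 between its highest and lowest group mean on the log2(FPKM + 1) scale. Pknox1 rose by 0.62 ± 0.14 in knockout cells (limma adjusted p = 0.00664), a call lost with quantile normalization (adjusted p = 0.101), and the wild-type change of 0.30 ± 0.14 did not pass (adjusted p = 0.0959). Whether these changes differ between genotypes was tested directly: the difference was 0.31 ± 0.20 and did not pass (limma adjusted p = 0.346). Pknox2 (chr9:36698563-36954907, mm9) had 5.55 and 4.72 FPKM in KO-NPC, 5.81 and 5.07 in E14-NPC, 0.631 and 0.617 in KO-ESC, and 1.02 and 0.496 in E14-ESC. Its NPC level was above that of ESC by 1.91 ± 0.17 in knockout and 1.89 ± 0.17 in wild-type cells (log2(FPKM + 1), SE), a description because of the filter.

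The TGIF genes, which encode the repressors of the group, moved in opposite directions. Tgif1 (chr17:71193544-71202872, mm9, 5 start sites) had 26.6 and 29.9 FPKM in KO-NPC, 24.8 and 25.7 in E14-NPC, 69.4 and 70.7 in KO-ESC, and 89.2 and 70.4 in E14-ESC. Every NPC library lay below every ESC library. Tgif1 fell to 0.404 times its ESC level in knockout NPC and to 0.316 times in wild-type NPC, with log2(FPKM + 1) changes of -1.28 ± 0.12 and -1.61 ± 0.12 (SE, n = 2 libraries each; limma adjusted p = 5.25e-05 and 1.48e-05). Tgif2 (chr2:156665742-156681305, mm9) had 18.6 and 15.3 FPKM in KO-NPC, 15.3 and 17.8 in E14-NPC, 6.95 and 6.28 in KO-ESC, and 6.89 and 7.65 in E14-ESC. It rose by 1.23 ± 0.13 in knockout and 1.08 ± 0.13 in wild-type cells (limma adjusted p = 1.05e-04 and 1.87e-04). The entry 5430405H02Rik (chr2:156678138-156688681, mm9) overlaps Tgif2 in the tables and had mean levels of 18.05 FPKM in KO-NPC, 15.6 in E14-NPC, 7.75 in KO-ESC and 5.95 in E14-ESC. How fragments in the overlap were shared between both entries is not given in the sources used here, so the Tgif2 level is uncertain to that extent.

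The make-up of the family therefore differed between stages. The 9 genes summed to 237 to 247 FPKM in KO-NPC, 253 FPKM in both E14-NPC libraries, 100 to 102 FPKM in KO-ESC, and 102 to 122 FPKM in E14-ESC. Tgif1 alone made up 11.7% ± 1.3 of that sum in KO-NPC, 9.98% ± 0.26 in E14-NPC, 69.4% ± 1.5 in KO-ESC and 71.1% ± 3.1 in E14-ESC (SD, n = 2 libraries each). In NPC, the 3 MEIS genes made up 44.5% ± 1.9 in KO-NPC and 38.5% ± 0.040 in E14-NPC, and the 2 PBX members 30.7% ± 1.5 in KO-NPC and 39.5% ± 1.2 in E14-NPC. The share of Pbx3 was 10.1% ± 0.75 in KO-NPC and 21.3% ± 0.20 in E14-NPC. These shares are of the 9 genes only.

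**Figure D2:**
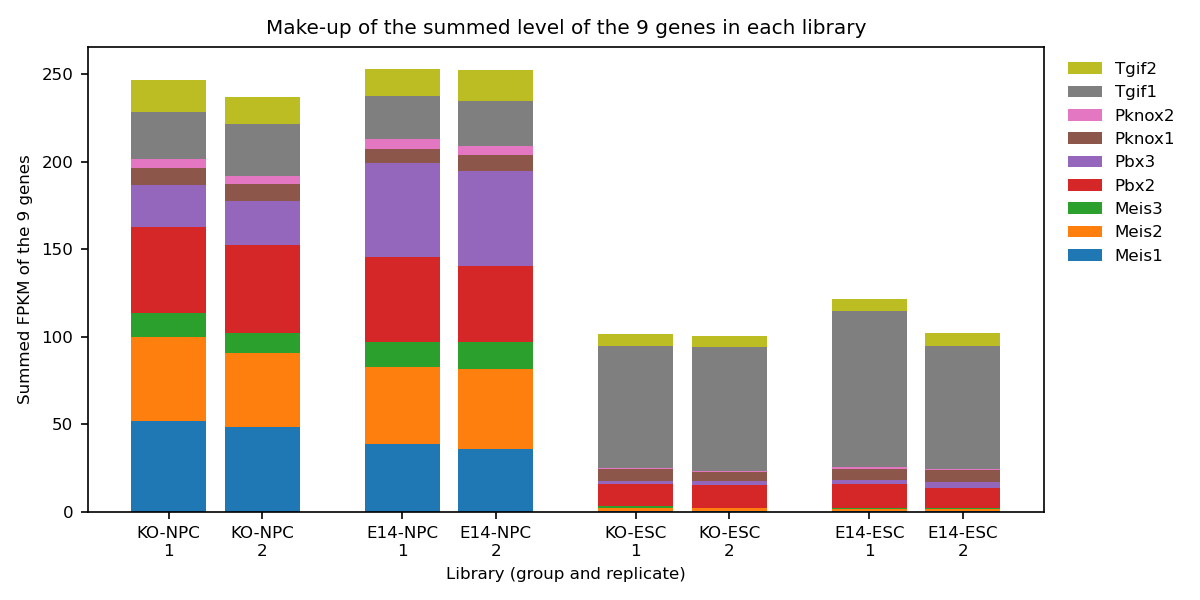
Summed FPKM of the 9 genes in each library (bars from 0, segments are genes), with KO-NPC, E14-NPC, KO-ESC and E14-ESC from left to right. Tgif1 fills most of each ESC bar, MEIS and PBX genes fill most of each NPC bar, and the Pbx3 segment is narrower in the KO-NPC libraries (9.59% and 10.7% of the sum) than in the E14-NPC libraries (21.1% and 21.4%).

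The order of levels in FPKM, which is scaled to transcript length, changed with stage and, at the top, with genotype. It is the order of the values as deposited, and the place of Tgif2 carries the uncertainty given above. In KO-NPC the order was Meis1, Pbx2, Meis2, Tgif1, Pbx3, Tgif2, Meis3, Pknox1 and Pknox2, and only the libraries of Meis1 and Pbx2 overlapped among neighbours. In E14-NPC it was Pbx3, Pbx2, Meis2, Meis1, Tgif1, Tgif2, Meis3, Pknox1 and Pknox2, with overlap between Pbx2 and Meis2 and between Tgif2 and Meis3. Pbx3 was thus the first of the 9 in E14-NPC and the fifth in KO-NPC. In KO-ESC and in E14-ESC the order began with Tgif1, Pbx2, Tgif2, Pknox1, Pbx3 and Meis2. The order of Meis3, Pknox2 and Meis1 at its low end could not be told, since neighbours there overlapped in both ESC groups, and in KO-ESC those of Tgif2 and Pknox1 overlapped too.

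In NPC, loss of Wdr68 went with a lower level of Pbx3 and with no other member past the threshold. Of the 9 genes, 1 was lower and 0 were higher in KO-NPC than in E14-NPC, where 12.7% of all genes tested were lower and 14.7% higher, 27.4% in either direction. Pbx3, a HOX partner, stood at 0.456 times its E14-NPC level in KO-NPC, and both knockout libraries lay below both wild-type ones. The log2(FPKM + 1) change was -1.10 ± 0.17 (SE, n = 2 libraries each; 95% interval -1.49 to -0.71; limma adjusted p = 0.00302). It passed without each of the 4 NPC libraries in turn (adjusted p = 0.0196 to 0.0268) and under every other alternative (0.000834 to 0.0113). The libraries of the groups did not overlap for 6 of the 9 genes, as for 63.6% of all genes tested (27.4% of all genes were called): Meis1, Pbx2, Pknox1 and Tgif1 were on the higher side in KO-NPC, Meis3 and Pbx3 on the lower, and 5 of the 6 did not pass.

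**Figure D3:**
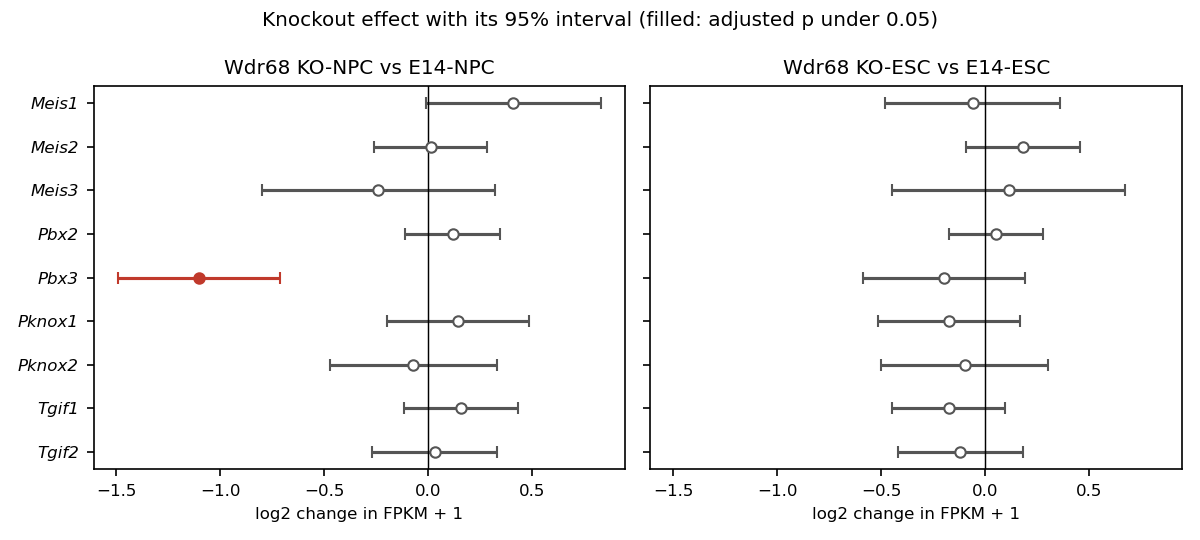
Change in log2(FPKM + 1) of the 9 genes with its 95% interval (limma), for KO-NPC over E14-NPC on the left and KO-ESC over E14-ESC on the right, filled where the adjusted p was under 0.05. Pbx3 in NPC (-1.10) is the one filled point, and the interval of Meis1 in NPC ends just below 0 (-0.01 to 0.83).

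Meis1 came next in size, with 51.7 and 48.2 FPKM in KO-NPC against 38.7 and 36.0 FPKM in E14-NPC. Both knockout libraries were higher, but the change of 0.41 ± 0.18 did not pass (limma adjusted p = 0.138). It passed in a fit of the NPC libraries alone (adjusted p = 0.0190) and in none of the other alternatives, whose adjusted p reached 0.560. For the other 7 members the fit gave a change between -0.24 (Meis3) and 0.16 (Tgif1), with adjusted p of 0.369 to 0.961. The intervals limit how large a change could be missed: that of Meis2 ran from -0.26 to 0.28, that of Pbx2 from -0.11 to 0.34, that of Tgif1 from -0.12 to 0.43, and that of Meis3 from -0.80 to 0.32. The sign of the small Meis2 and Tgif2 values turned under median-ratio scaling and quantile normalization.

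In ESC, no member differed between genotypes at the threshold. In KO-ESC against E14-ESC 0 of 9 members passed (limma), where 0.248% of all genes tested, 33 genes, did so, and 1686 genes had an unadjusted p under 0.05, none of them a member. Changes ran from -0.20 ± 0.17 for Pbx3 to 0.18 ± 0.12 for Meis2 (log2(FPKM + 1), SE, n = 2 libraries each), with adjusted p of 0.564 to 0.943. Meis2, at 1.32 and 1.66 FPKM in KO-ESC and 1.07 and 1.32 FPKM in E14-ESC, was the 1 gene of the 9 whose libraries did not overlap, by a gap that vanishes at this rounding, where 44.2% of all genes did not overlap (and 0.248% were called). For Tgif1, the most abundant member in ESC, the 95% interval of the change was -0.45 to 0.10.

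Whether the knockout effect differed between stages was tested as the effect in NPC minus the effect in ESC. For Pbx3 the difference was -0.91 ± 0.23 (log2(FPKM + 1), SE; 95% interval -1.46 to -0.36; limma adjusted p = 0.0398), so 1 of 9 members was lower and 0 were higher, where 8.39% of all genes were lower and 8.41% higher. This call was close to the threshold: it was lost with a pseudocount of 0.1 (adjusted p = 0.120), without the filter on low values (0.0702), and on leaving out any of 6 libraries: E14-ESC replicate 1 (0.0869), E14-NPC replicate 1 (0.102) or 2 (0.119), KO-ESC replicate 2 (0.104), and KO-NPC replicate 1 (0.122) or 2 (0.0923). The other 8 differences ran from -0.35 ± 0.34 for Meis3 to 0.47 ± 0.25 for Meis1, with adjusted p of 0.216 to 0.956. The Pbx3 effect in ESC itself was -0.20, with an interval of -0.59 to 0.19, at a level of 1.80 to 3.17 FPKM per library.

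Genes with the pattern most like that of 3 members were sought over the 8 libraries among 8383 genes with a mean of at least 5 FPKM, by the root mean square difference of centred log2(FPKM + 1) values. The 3 members were those with the widest range of group means: Meis1 (5.19), Meis2 (4.40) and Pbx3 (4.11). Among the 3 nearest to Pbx3 were Dpysl2, a cytoskeletal protein of growing neurites (0.209), and Sox4, a transcription factor of differentiating neurons and other cells (0.212). Sox4 averaged 27.4 ± 1.8 FPKM in KO-NPC, 52.7 ± 4.4 in E14-NPC, 1.85 ± 0.064 in KO-ESC and 3.20 ± 0.083 in E14-ESC (SD, n = 2 libraries each). Nearest to Meis1 were Efnb2, a membrane ligand of Eph receptors (0.229), Nr2f2, an orphan nuclear receptor (0.235), and Zfp703, a transcriptional cofactor (0.239). Nr2f2 averaged 59.6 ± 8.8 FPKM in KO-NPC and 29.1 ± 2.1 FPKM in E14-NPC. Nearest to Meis2 were Dlk1, a Delta-like membrane protein (0.101), Samd14 (0.144) and Tcaf1 (0.146). These likenesses describe 8 libraries that fall into 2 stages, and any gene high in NPC shares that part of the pattern.

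Of 10 other TALE genes considered, 6 were tested, and those that changed in knockout NPC were lower. With differentiation, 4 of the 6 rose in KO-NPC over KO-ESC and 6 of the 6 in E14-NPC over E14-ESC, where 41.6% of all genes rose in each. Of the 6, Irx1, Irx3 and Irx5 were under 1 FPKM in every ESC library and so passed the filter through NPC libraries alone, which bound them to be higher there. The wild-type call of Mkx was lost without the filter (limma adjusted p = 0.0527), with median-ratio scaling (0.0531), with quantile normalization, where its sign turned (0.646), and without E14-ESC replicate 1 (0.143) or E14-NPC replicate 2 (0.172), and that of Pbx4 with quantile normalization (0.0605). In KO-NPC against E14-NPC, 0 were higher and 3 were lower, against 14.7% and 12.7% of all genes, and the median over the 6 was -0.56, against 0.05 over all genes. Irx3, an Iroquois gene of neural tube patterning, had 2.29 and 2.50 FPKM in KO-NPC, against 11.2 and 16.5 FPKM in E14-NPC (-2.11 ± 0.18; limma adjusted p = 2.31e-04). Irx5, a gene of the same cluster, had 1.86 and 1.46 FPKM in KO-NPC, against 8.11 and 9.89 FPKM in E14-NPC (-1.91 ± 0.15; adjusted p = 1.70e-04). Pbx4 had 2.71 and 1.97 FPKM in KO-NPC, against 4.92 and 5.37 FPKM in E14-NPC (-0.89 ± 0.16; limma adjusted p = 0.00733, and 0.0501 without E14-NPC replicate 2). Irx1, Irx2 and Mkx did not pass, with changes of -0.23 to -0.00071, and the sign of the Mkx value turned under a pseudocount of 0.1 and under quantile normalization. Tgif2lx1 and Tgif2lx2 were listed at 0 in every library, and Irx4 and Irx6 did not pass the filter.

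Genes whose products work with TALE proteins were also counted in KO-NPC against E14-NPC. Of 38 Hox genes considered, 30 were tested, and 4 were higher and 19 lower, against 14.7% and 12.7% of all genes, with a median change of -0.82. Hoxa9 and Hoxc9 reached 1 FPKM in E14-NPC libraries alone and so were bound to be lower in KO-NPC. Hoxb9 averaged 14.1 ± 6.4 FPKM in KO-NPC and 193 ± 1.9 FPKM in E14-NPC (SD, n = 2 libraries each), and Hoxa6 averaged 3.26 ± 0.68 FPKM in KO-NPC and 36.3 ± 5.9 FPKM in E14-NPC. Hoxd4 averaged 7.41 ± 0.15 FPKM in KO-NPC and 52.8 ± 1.8 FPKM in E14-NPC, whereas Hoxb13, the most posterior gene of its cluster, averaged 27.6 ± 1.2 FPKM in KO-NPC and 3.38 ± 0.45 FPKM in E14-NPC. The log2(FPKM + 1) changes of these 4 were -3.75, -3.13, -2.68 and 2.71 (limma adjusted p of 1.97e-05 to 6.62e-04); Hoxb13 did not pass with a pseudocount of 0.1 (adjusted p = 0.0600), and that setting left 14 Hox genes called.

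Of 16 genes of other TALE protein partners, 1 was higher and 2 were lower in KO-NPC than in E14-NPC, against 14.7% and 12.7% of all genes, with a median of 0.11. Ctbp2, a corepressor recruited by TGIF proteins, averaged 20.4 ± 1.3 FPKM in KO-NPC and 34.6 ± 1.9 FPKM in E14-NPC (-0.73 ± 0.09; limma adjusted p = 0.00115). Hdac2, a histone deacetylase, averaged 107 ± 10.1 FPKM in KO-NPC and 138 ± 3.5 FPKM in E14-NPC (-0.38 ± 0.07; adjusted p = 0.00975, and 0.0607 without E14-NPC replicate 2). Crtc2, a coactivator of CREB, averaged 14.1 ± 0.66 FPKM in KO-NPC and 9.51 ± 1.0 FPKM in E14-NPC (0.52 ± 0.14; adjusted p = 0.0305), and did not pass without E14-NPC replicate 1 (0.0539) or 2 (0.153), or KO-NPC replicate 1 (0.138) or 2 (0.0877).

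Retinoic acid handling genes bear on the agent that all NPC received. Of 23 such genes, 20 were tested, and 3 were higher and 8 lower in KO-NPC than in E14-NPC, against 14.7% and 12.7% of all genes, with a median of -0.18. Crabp2, a cytoplasmic carrier of retinoic acid, averaged 39.2 ± 12 FPKM in KO-NPC and 224 ± 15 FPKM in E14-NPC, and its relative Crabp1 averaged 15.8 ± 5.5 FPKM in KO-NPC and 84.4 ± 1.8 FPKM in E14-NPC. Cyp26a1, which degrades retinoic acid and is itself induced by it, averaged 14.4 ± 2.9 FPKM in KO-NPC and 60.7 ± 4.7 FPKM in E14-NPC. Aldh1a2, which makes retinoic acid, averaged 16.5 ± 1.5 FPKM in KO-NPC and 4.35 ± 0.58 FPKM in E14-NPC. Their log2(FPKM + 1) changes were -2.52, -2.38, -2.01 and 1.71 (limma adjusted p of 2.29e-04 to 4.22e-04). Transcripts of Meis and Pbx genes are known to rise with retinoic acid, as said above. Of these members, Pbx3 was lower in this comparison (-1.10, limma adjusted p = 0.00302), and Meis1, Meis2, Meis3 and Pbx2 did not pass. Whether the response to retinoic acid has a part in these values was not tested. In KO-ESC against E14-ESC, 0 of the 6 other TALE genes, 0 of the 30 Hox genes, 0 of the 16 partners and 0 of the 20 retinoic acid genes passed (limma), where 0.248% of all genes did; at an unadjusted p under 0.05 the counts were 1 (Irx2), 4, 3 and 6 in the order of these lists.

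**Figure D4:**
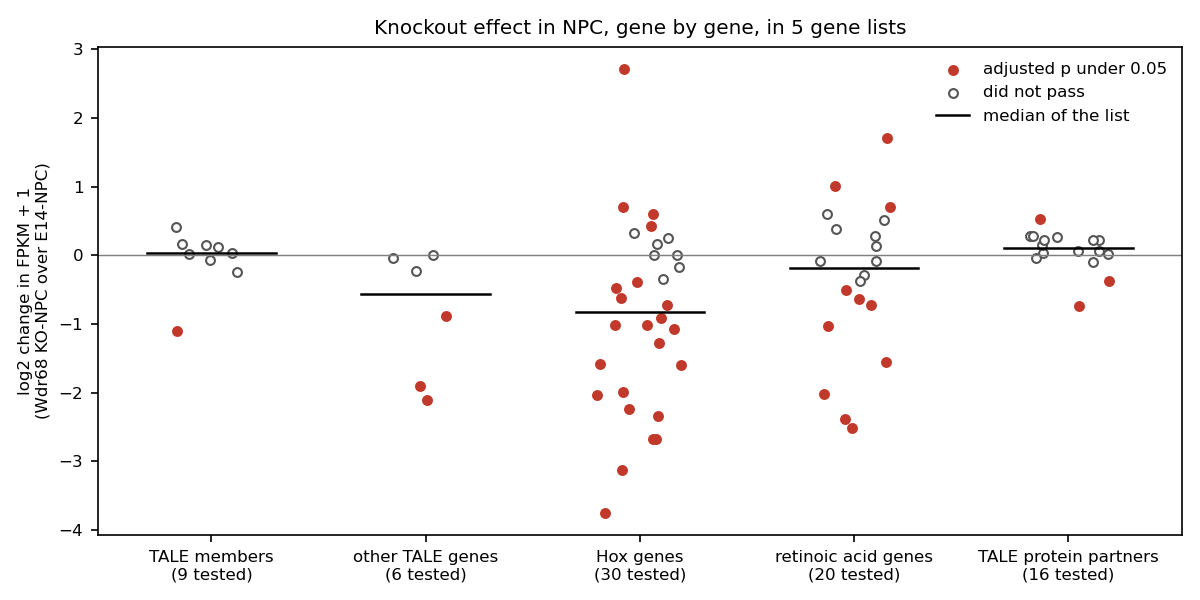
Change in log2(FPKM + 1) of each tested gene in KO-NPC over E14-NPC for the 9 TALE members, 6 other TALE genes, 30 Hox genes, 20 retinoic acid genes and 16 TALE protein partners (filled, adjusted p under 0.05 in limma; line, median; horizontal spread within a list is for legibility). The medians are 0.03, -0.56, -0.82, -0.18 and 0.11, and among the members Pbx3 is the filled point, at -1.10.

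Markers of cell types moved with genotype in the same NPC libraries as Pbx3. Each count below is of genes called in KO-NPC against E14-NPC, where 14.7% of all genes tested were higher and 12.7% lower. Neural progenitor markers were lower in KO-NPC for 9 of 10 genes tested, Nes being the one that did not pass, with sums of 47.5 to 50.5 FPKM in KO-NPC and 296 to 301 FPKM in E14-NPC. Neuronal markers were lower for 9 of 10, with Isl1 higher, and summed to 30.5 to 35.8 FPKM in KO-NPC and 385 to 407 FPKM in E14-NPC. Mesoderm and lateral plate markers were higher for 7 of 8 genes tested and summed to 130 to 150 FPKM in KO-NPC and 28.5 to 32.0 FPKM in E14-NPC. Endothelial and blood markers were higher for 8 and lower for 1 (Sox17) of 10, and Emcn did not pass. Their sums were 866 to 1064 FPKM in KO-NPC and 96.4 to 126 FPKM in E14-NPC, with Gata1 at 0 in both E14-NPC libraries. Most of these sums came from the embryonic globins Hba-x, Hbb-bh1 and Hbb-y. The globins averaged 478, 233 and 218 FPKM in KO-NPC and 47.4, 24.3 and 26.0 FPKM in E14-NPC. Pecam1, the next highest in KO-NPC, averaged 10.1 FPKM there and 2.31 FPKM in E14-NPC. Heart muscle markers were higher for 3 of 3 tested (12.6 to 16.8 FPKM in KO-NPC, 1.68 to 2.04 FPKM in E14-NPC, with Myl7 at 0 in both E14-NPC libraries). The same heart list summed to 14.9 to 19.6 FPKM in KO-ESC and 18.7 to 19.2 FPKM in E14-ESC. Myl7 made up most of those ESC sums, with means of 16.2 FPKM in KO-ESC and 18.2 FPKM in E14-ESC, against 1.96 FPKM in KO-NPC. Endoderm markers were higher for 5 and lower for 1 of 6 (88.0 to 94.8 FPKM in KO-NPC, 32.1 to 33.3 FPKM in E14-NPC). The heart genes Actc1, Myh6, Myh7 and Nkx2-5 did not pass the filter. Among all these markers, Tnnt2, Myl4, Tal1 and Apoa1 reached 1 FPKM in KO-NPC libraries alone. Hes5, Dll1, Sox17, Fap, Lum and Dcn reached it in E14-NPC libraries alone. These genes were bound to be higher there, so the counts that hold them are descriptions. Feeder fibroblast markers were higher for 1 and lower for 6 of 9 (81.4 to 91.9 FPKM in KO-NPC, 98.1 to 109 FPKM in E14-NPC, with S100a4 at 0 in both KO-NPC libraries). The list is named for feeders, but it summed to only 1.02 to 1.59 FPKM in ESC libraries. Which cells gave its NPC values was not tested. Pluripotency markers were higher for 2 (Klf4 and Tdgf1) and lower for 2 (Sox2 and Esrrb) of 10, with sums of 11.1 to 11.8 FPKM in KO-NPC and 36.6 to 40.9 FPKM in E14-NPC. Sox2, which is also on the neural progenitor list, had 1.15 and 2.47 FPKM in KO-NPC and 30.4 and 29.9 FPKM in E14-NPC. That gap in Sox2 is about as large as the gap between the sums. The part of this difference in cell types in the Pbx3 value, and in those of Irx3, Irx5, Pbx4, the Hox genes, the partners and the retinoic acid genes, was not tested.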

How the data were processed

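The authors deposited FPKM per gene, with confidence bounds, in 1 table for each of 8 libraries. Per the submitters' processing notes, TopHat2 2.1.1, Cufflinks 2.2.1 and build mm9 were used; the role of each and whether counting used strand are not given in the sources used here. Each table held 24854 entries with 24318 symbols; 821 entries of 285 symbols were summed, and 12 symbols with failed estimates were left out, which left 24306. Fragment numbers were inferred from the bounds. The totals per library took in all entries, and the other fragment numbers used genes with 1 start site alone. Among low values, 62.9% to 66.7% lay within 0.05 of a whole number, so no counts were recovered and no count test was run.

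Genes with at least 1 FPKM in at least 2 libraries (13318) were tested as log2(FPKM + 1), which understates changes of low genes, with limma 3.58.1 in R 4.3.3: 4 group means, a variance trend, 4 residual degrees of freedom, two-sided tests and Benjamini-Hochberg adjustment over all genes. The scripts were tested on simulated data. Alternatives were a pseudocount of 0.1, no filter, a minimum of 5 FPKM, quantile normalization, median-ratio scaling, keeping the highest of a symbol's entries, only the groups compared, a replicate block, and leaving out each library.

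The members and gene lists were chosen with earlier results of these data known. Named were all members and other TALE genes, and up to 4 called genes per further list with the largest change in KO-NPC against E14-NPC; some genes are not reported here. Promoter sequences are RefSeq's (GRCm38.p6); gene positions are those of the tables (mm9).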

Additional observations from a re-analysis of the deposited data

Results flagged for a closer look

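The knockout effect differed between NPC and ESC, by a direct test of the difference in limma, for 13 of the genes named above (effect in NPC minus effect in ESC, log2(FPKM + 1)). Over all genes tested, 8.41% were higher and 8.39% lower by this test. The Hox, partner and retinoic acid genes were named for their change in KO-NPC against E14-NPC, which is part of this difference. Their passing is therefore a description and supports nothing further. Among TALE genes the difference was -0.91 for Pbx3 (adjusted p = 0.0398), -2.17 for Irx3 (0.00203) and -1.98 for Irx5 (0.00153). Among Hox genes it was -3.52 for Hoxb9, -3.01 for Hoxa6, -2.50 for Hoxd4 and 2.25 for Hoxb13. Hoxb13 did not pass with a pseudocount of 0.1 (adjusted p = 0.556) or without E14-NPC replicate 2 (0.0516), and Hoxa6 did not with that pseudocount (0.129). Among retinoic acid genes it was -2.57 for Crabp2, -1.96 for Cyp26a1 (adjusted p = 0.185 with a pseudocount of 0.1), -1.63 for Crabp1 (0.0509 without E14-NPC replicate 2) and 1.83 for Aldh1a2. Among partners it was -0.57 for Ctbp2 and 0.74 for Crtc2. The Crtc2 difference did not pass with a pseudocount of 0.1 (limma adjusted p = 0.0561), without the filter (0.0687) or with the replicate block (0.0663). The adjusted p of Ctbp2 was above 0.05 without any one of 6 libraries, and that of Crtc2 without any one of 7. With 2 libraries per group, no library could be tested for standing apart.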

How the results depend on the processing

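In the differentiation comparisons, the count of members called was within 1.5 times the reported one under every alternative. The count of members called in KO-NPC against E14-NPC was 2 in a fit of only the groups compared, the added gene being Meis1; for the difference of effects it was 0 with a pseudocount of 0.1 and without the filter, and 0 to 1 on leaving out 1 library. For the other TALE genes, the count in NPC was 5 without the filter. With a pseudocount of 0.1, the count of Hox genes was 14 in NPC, 1 in ESC and 9 for the difference, and that difference count was 12 to 19 without 1 library. For the partners, the difference count was 1 with a pseudocount of 0.1, without the filter and with the replicate block, and 0 to 1 without 1 library; their NPC count was 1 to 2 without 1 library. The difference count of retinoic acid genes was 5 to 9 without 1 library. Over all genes, 3648 calls in NPC became 1994 to 2275, 33 in ESC became 8 to 11, and 2237 for the difference became 1072 to 1480 on leaving out 1 library, where fewer libraries remained. The cause of the other shifts was not tested. A minimum of 5 FPKM gave no value for Mkx and Pbx4, and a fit of ESC libraries alone gave none for Meis1, Meis3, Pknox2, Irx1, Irx3 and Irx5, which then failed the filter.

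Values near 0 that changed sign, in log2(FPKM + 1), all failed the threshold in both settings except Mkx in wild-type differentiation. In NPC, Meis2 was -0.043 and Tgif2 -0.022 with median-ratio scaling, and Meis2 was -0.084, Tgif2 -0.039 and Mkx 0.14 with quantile normalization; Mkx was 0.0070 with a pseudocount of 0.1. With quantile normalization, NPC against ESC gave -0.10 for Mkx in wild type and -0.17 for Pbx4 and -0.14 for Mkx in knockout, and the difference of effects gave -0.027 for Pbx2 and -0.0020 for Irx2; Pknox2 was -0.016 there with median-ratio scaling. Leaving out 1 library gave, in NPC, -0.072 to 0.095 for Meis2, -0.17 to 0.026 for Pknox2, -0.10 to 0.16 for Tgif2, -0.27 to 0.19 for Irx1 and -0.19 to 0.19 for Mkx. In ESC it gave -0.29 to 0.17 for Meis1, -0.26 to 0.49 for Meis3, -0.061 to 0.16 for Pbx2, -0.40 to 0.0062 for Pbx3, -0.36 to 0.014 for Pknox1, -0.32 to 0.12 for Pknox2 and -0.028 to 0.16 for Irx5. For the difference it gave -0.73 to 0.023 for Meis3, -0.048 to 0.18 for Pbx2, -0.19 to 0.24 for Pknox2, -0.14 to 0.32 for Irx1, -0.36 to 0.027 for Mkx and -0.19 to 0.0068 for Hdac2.

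Deviations of same-numbered libraries from group means correlated at r = 0.075 between KO-NPC and E14-NPC, 0.025 between KO-ESC and E14-ESC, -0.054 between KO-NPC and KO-ESC, -0.027 between E14-NPC and E14-ESC, -0.025 between KO-NPC and E14-ESC, and 0.179 between E14-NPC and KO-ESC, so 1 of 6 pairs was above 0.1 and the numbers were not taken as pairs. The fit with that number as a replicate block called 15 genes in ESC against 33, and left the member counts in every comparison as reported (1 in NPC, 0 in ESC). Depth limits the ESC values of Meis1, Meis3 and Pknox2, which rest on as few as 5.4, 2.8 and 14.3 fragments.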
